A study of Mus musculus with 86 samples.

Results

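The cytosolic ribosomal protein genes are the genes whose products, together with ribosomal RNA, build the ribosome of the cytoplasm. They were taken as the gene symbols of Rpl or Rps followed by a number, with an optional a or x, plus Rplp0, Rplp1 and Rplp2, that averaged at least 1 CPM (counts scaled to a common library total, as usual for this unit) over the 86 libraries. All 75 matching symbols met that level, of 42807 symbols in the table, with 46 of the large subunit and 29 of the small subunit. Their mean ranged from 52.7 CPM for Rpl36a to 701 CPM for Rps2, so no gene lay near the threshold of 1 CPM, and all 75 passed the filter on low counts in every fit. RNA had been sequenced from the gastrocnemius (GA), a mostly fast muscle of the calf, and the soleus (SO), a mostly slow muscle beside it, with 43 libraries per muscle in 9 groups. The mice were male C57BL/6N of 10 weeks. In the treated groups, mice received dexamethasone (DEX, a synthetic glucocorticoid that wastes muscle) at 25 mg/kg per day by injection for 10 days together with a gavage of an extract or of resveratrol. The extracts are mixtures of peony and liquorice called JGT02, JGT03 and JGT04, which differ in the ratio of the 2 plants, each given at 100 mg/kg or 400 mg/kg, and resveratrol (RSV) was given at 200 mg/kg. DEX mice had the injections with a buffer gavage, and non-treated (NT) mice had buffer by both routes. Extract and resveratrol were given in a cellulose vehicle that DEX and NT mice did not get, so treatment and vehicle cannot be told apart. Each group had 5 libraries per muscle, except DEX and JGT04 at 400 mg/kg with 4. Nothing in the labels names separate cohorts beyond the mouse number, so p-values measure the spread between these mice.

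Ribosomal proteins are made in near equal numbers, because each ribosome holds a single copy of most of them, and surplus proteins are degraded. Their mRNAs usually begin with a C followed by a run of pyrimidines, the 5′ terminal oligopyrimidine (TOP) motif, through which mTORC1 and the RNA-binding protein LARP1 set their translation and stability. In skeletal muscle, ribosome content limits the capacity for protein synthesis, and the muscle-specific protein Rpl3l takes the place of Rpl3 in mature fibres.

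A few annotated starts of ribosomal protein genes are shown, some with a pyrimidine run of the kind the TOP motif needs and some without. Each line gives 15 bases before and 15 from the annotated start on, from RefSeq on GRCm38.p6, 5′ to 3′ on the strand of the gene, with capitals for a pyrimidine run of 5 or more that starts within 5 bases of the start. The first 5 are genes with C at the first base and pyrimidines at the first 5, followed by Rplp0 and Rps28, which have no such run there, and by Rpl3l, the paralog outside the set.
Rps6: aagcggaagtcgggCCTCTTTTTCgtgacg
Rpl38: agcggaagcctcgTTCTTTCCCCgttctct
Rpl28: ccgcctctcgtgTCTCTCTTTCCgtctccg
Rplp2: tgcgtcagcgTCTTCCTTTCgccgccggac
Rps27: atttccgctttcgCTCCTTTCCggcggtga
Rplp0: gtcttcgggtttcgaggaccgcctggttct
Rps28: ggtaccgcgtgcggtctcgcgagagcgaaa
Rpl3l: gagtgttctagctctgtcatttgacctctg
These windows lie at chr4:86857353-86857382 (minus strand) for Rps6, chr11:114668565-114668594 (plus) for Rpl38, chr7:4792950-4792979 (plus) for Rpl28, chr7:141447636-141447665 (plus) for Rplp2, chr3:90213634-90213663 (minus) for Rps27, chr5:115559452-115559481 (plus) for Rplp0, chr17:33824548-33824577 (minus) for Rps28 and chr17:24727811-24727840 (plus) for Rpl3l. Of 65 promoter windows found for 55 of the 75 genes, 35.4% held a pyrimidine run of the kind shown in capitals, as did 22.0% of all windows. Of these 65, 13 had C at the first base and pyrimidines at the first 5, as did 823 of all 32851 windows (2.5%). Over 250 bases before to 50 after the start, on both strands, the letters CCGGAAG, as bound by ETS factors, stood in 35.4% of these windows and 8.9% of all windows. GGGCGG, the core of an SP1 site, stood in 60.0% against 35.7%, AAGATGGC, the core of a YY1 site, in 10.8% against 2.7%, and TATAAA in 9.2% against 13.6%. Of the genes shown, the windows of Rps6, Rpl38 and Rplp2 held CCGGAAG, and those of Rpl28, Rps27, Rplp0, Rps28 and Rpl3l did not.

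Library totals ran between 18.8 and 34.6 M counts, with a median of 27.5 M. In 3 libraries the muscle markers went against the rest of their muscle. The GA library of JGT02 at 100 mg/kg, mouse 1, had 1239 CPM of Myh3, the embryonic myosin, against 2.65 to 25.9 CPM in the other GA libraries, and the SO library of JGT02 at 100 mg/kg, mouse 5, had 1065 CPM against 20.9 to 122 CPM in the SO libraries outside these 3. The SO library of JGT02 at 400 mg/kg, mouse 1, had 14.4 CPM of Myh7, the slow myosin, against 4181 to 9138 CPM in the SO libraries other than itself and the one with high Myh3. Ribosomal protein genes took 3.77% of counts in the first of these and 4.46% in the second, where the other libraries of those muscles held 1.07 to 1.51% in GA and 1.21 to 2.27% in SO. Single genes, unless stated, and markers are given with all libraries, and counts over the 75 genes and the other lists also without these 3. Leaving them out lowered the common dispersion of the fits to 0.00698 without them, against 0.0379 with them, in GA and to 0.0187 against 0.0585 in SO. The SO library of DEX mouse 4 had a summed level of 439 CPM over 9 macrophage markers, against 44.1 to 76.9 CPM in the other 3 DEX mice. Counts of ribosomal protein genes called without it are given below.

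In the soleus, DEX raised ribosomal protein genes as a group. Of the 75 genes, 60 rose and none fell in DEX over NT, where 20.8% of all 14811 genes tested were called and 11.3% rose, and their median log2 fold change was 0.42 against 0.05 for all genes. All 75 log2 fold changes were above 0, between 0.10 and 1.01. The genes took 1.77, 1.78, 1.57 and 2.27% of counts in the 4 DEX libraries, against 1.33, 1.47, 1.47, 1.21 and 1.3% in the 5 NT libraries, so the groups did not overlap. For 54 of the 75 genes every DEX library was above every NT library, as it was for 12.3% of all genes. With the 3 libraries left out, 70 genes rose, against a background of 43.2%, and without those and DEX mouse 4 there were 62, against 36.1%, with a median of 0.36. The count was 25 when DEX mouse 4 alone was left out, 27 without NT mouse 4 and 37 without NT mouse 5, and 23 genes were called whichever single library was left out. Of the called genes described by subunit below, Rpl38, Rpl41, Rps25 and Rps28 were among these 23. Rpl3, Rpl5, Rpl10a, Rpl11, Rpl12, Rpl39, Rps6, Rps19, Rps26 and Rps27a were not, so each lost its call with some library left out. In bulk muscle, more RNA per cell and more cells that are rich in these mRNAs cannot be told apart.

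**Figure D1:**
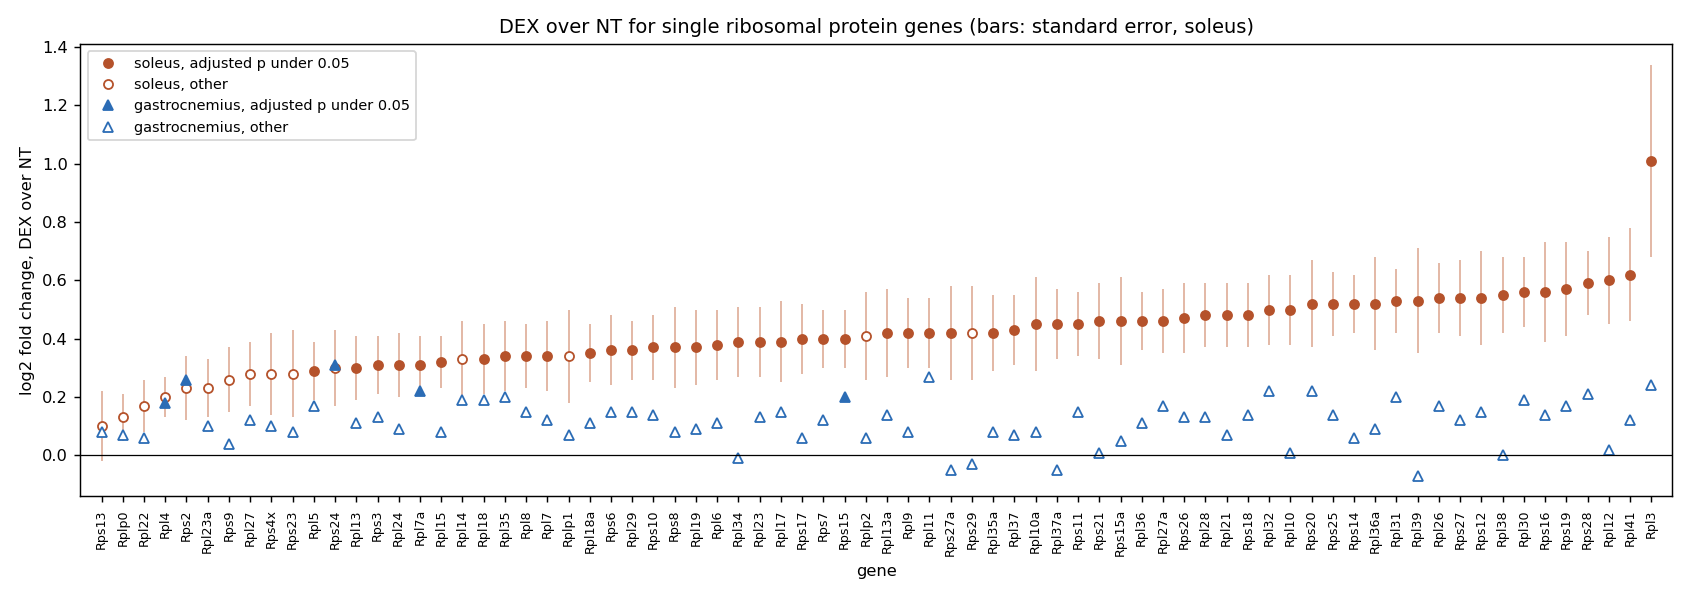
Log2 fold change of DEX over NT (y axis) for 74 of the 75 ribosomal protein genes (x axis, ordered by the soleus value), with circles for soleus, bars for its standard error and triangles for gastrocnemius. Filled symbols passed an adjusted p of 0.05; soleus values run between 0.10 and 1.01 and gastrocnemius values between -0.07 and 0.31.

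Among the large subunit genes, 38 of 46 rose in the soleus with a median log2 fold change of 0.40. Rpl3, which reaches near the peptidyl transferase centre, had 94.7, 77.0, 68.8 and 198.1 CPM in DEX mice, against 46.9, 61.9, 61.0, 45.4 and 57.9 CPM in NT mice. Every DEX value was above every NT value, and mouse 4 stood far above the other DEX mice. Its log2 fold change of 1.01 ± 0.33 (SE; adjusted p = 0.0265, edgeR quasi-likelihood test) was the highest of the set, and it was 0.56 without DEX mouse 4 and the 3 libraries (adjusted p = 0.000835). Rpl41, which encodes a peptide among the shortest of the ribosome, had 282.5, 289.4, 295.7 and 323.8 CPM in DEX mice, against 209.2, 215.5, 205.4, 166.9 and 173.5 CPM in NT mice. The 2 groups lay well apart, with a log2 fold change of 0.62 ± 0.16 (adjusted p = 0.00703). Rpl12, at the base of the stalk, rose by a log2 fold change of 0.60 ± 0.15 (adjusted p = 0.00492). Rpl38, known for its part in the translation of Hox mRNAs in mouse embryos, had 149.6, 187.3, 149.1 and 212.2 CPM in DEX mice, against 129.1, 139.2, 127.3, 93.4 and 105.5 CPM in NT mice. All 4 DEX values exceeded the NT values (0.55 ± 0.13, adjusted p = 0.00388). Rpl5 and Rpl11, which bind 5S rRNA and inhibit Mdm2 when ribosome assembly fails, rose by 0.29 ± 0.10 (adjusted p = 0.0384) and 0.42 ± 0.12 (adjusted p = 0.0136) on the log2 scale. Rpl10a rose by 0.45 ± 0.16 (adjusted p = 0.0461) and Rpl39, which lines the exit tunnel, by 0.53 ± 0.18 (adjusted p = 0.038). Rpl22, an RNA-binding protein at the surface, was not called, at 0.17 ± 0.09 (adjusted p = 0.18).

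Of the small subunit genes, 22 of 29 rose in the soleus, with a median log2 fold change of 0.42. Rps28, at the exit of the mRNA channel, had 130.8, 156.5, 133.5 and 150.8 CPM in DEX mice, against 101.7, 108.6, 98.4, 78.7 and 86.3 CPM in NT mice. No value overlapped, and the log2 fold change was 0.59 ± 0.11 (adjusted p = 0.000486, at most 0.00374 with any single library left out). Rps19, whose loss in people causes Diamond-Blackfan anaemia, had 129.1, 134.9, 117.4 and 152.6 CPM in DEX mice, against 89.4, 99.8, 95.4, 75.8 and 89.5 CPM in NT mice. These too lay apart (0.57 ± 0.16, adjusted p = 0.0136). Rps25, needed for initiation at some viral internal entry sites, rose by 0.52 ± 0.11 (adjusted p = 0.00161), and Rps26, which contacts mRNA upstream of the start codon, by 0.47 ± 0.12 (adjusted p = 0.00447). Rps6, the substrate of the S6 kinases, rose by 0.36 ± 0.12 (adjusted p = 0.0305) and Rps27a, made as a fusion with ubiquitin, by 0.42 ± 0.16 (adjusted p = 0.0484). Rps4x was at 0.28 ± 0.14 and was not called (adjusted p = 0.131). Rps13, which had the lowest value of the set, had 195.9, 212.9, 179.5 and 185.4 CPM in DEX mice, against 188.8, 202.0, 194.1, 137.3 and 177.4 CPM in NT mice. Its groups overlapped (0.10 ± 0.12, adjusted p = 0.571).

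The 3 proteins of the acidic stalk, which recruits elongation factors to the ribosome, did not pass in the soleus. Rplp0 had 783.7, 819.8, 702.3 and 871.7 CPM in DEX mice, against 752.3, 745.4, 766.9, 640.3 and 718.2 CPM in NT mice. DEX mouse 3 lay below 4 of the 5 NT mice, and the log2 fold change was 0.13 ± 0.08 (adjusted p = 0.258). Rplp1 was at 0.34 ± 0.16 (adjusted p = 0.117) and Rplp2 at 0.41 ± 0.15 (adjusted p = 0.051), and both passed without the 3 libraries (adjusted p = 0.0285 and 0.00661).

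Ribosomal proteins whose symbols fall outside the naming pattern were called in part. Of 6 such small subunit genes, Rpsa (log2 fold change 0.42 ± 0.13), Rps3a1 (0.32 ± 0.10) and Fau (0.45 ± 0.13), which encodes a ubiquitin-like protein fused to eS30, rose, as did Rps27rt (0.53 ± 0.15), and all 6 rose without the 3 libraries. Gnb2l1, the Rack1 scaffold of the small subunit, was at 0.34 ± 0.13 (adjusted p = 0.0533) and Rps27l at 0.26 ± 0.11 (adjusted p = 0.0988). Of 5 tested in the large subunit, Rpl36al (0.57 ± 0.12) and Rpl22l1 (0.74 ± 0.20), the paralog of Rpl22, rose, and 3 of the 5 rose without the 3 libraries. Rpl7l1 was at 0.09 ± 0.10 (adjusted p = 0.527) and Rpl3l at -0.17 ± 0.40 (adjusted p = 0.791).

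The counts for other genes of the translation machinery in soleus stand beside the same 20.8% of all genes called with all libraries and 43.2% without the 3. Of 76 mitochondrial ribosomal protein genes none rose and 10 fell, with a median log2 fold change of -0.04, among them Mrps31 (-0.55 ± 0.15) and Mrpl9 (-0.44 ± 0.10), while 4 rose and 17 fell without the 3 libraries. Of 44 ribosome biogenesis genes 11 rose and 1 fell, with a median of 0.12, and 13 rose and 2 fell without the 3 libraries. Nhp2, of the box H/ACA particles that modify rRNA, rose by 0.85 ± 0.17, Taf1d, of the RNA polymerase I initiation factor, by 0.72 ± 0.20, and Polr1a, the largest subunit of that polymerase, fell by 0.38 on the log2 scale. Of 22 translation factors and related genes whose mRNAs mostly carry TOP motifs, 4 rose and 3 fell, with a median of 0.05, and 6 rose and 4 fell without the 3 libraries. Gas5, which hosts small nucleolar RNAs, rose by 0.58 ± 0.16 and Vim, the intermediate filament gene, by 1.57 ± 0.44. Naca, of the nascent polypeptide-associated complex, fell by 0.37 and Eif2s3x, of initiation factor 2, by 0.32. Of 18 genes of mTOR signalling and translation control none rose and 2 fell, Ddit4l, an inhibitor of mTORC1 (-1.18 ± 0.35), and Rptor, the mTORC1 scaffold (-0.28 ± 0.09), while 2 rose and 6 fell without the 3 libraries. Of 76 nuclear genes of oxidative phosphorylation none rose and 4 fell, with a median of -0.02, and 3 rose and 13 fell without the 3 libraries.

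Markers of other cells moved in the same soleus libraries. All 10 Schwann cell markers rose, with summed levels of 937, 162, 752 and 120 CPM in DEX mice, against 119 to 192 CPM in NT mice. DEX mice 1 and 3 were above every NT mouse, and mice 2 and 4 were within the NT range. Of 10 adipocyte markers 8 rose, with sums of 2150 to 4160 CPM in DEX mice and 2502 to 4381 CPM in NT mice, and of 10 endothelial markers 4 rose, with sums of 561 to 703 CPM and 393 to 512 CPM. Of 9 macrophage markers none passed, with sums of 44.1 to 439 CPM in DEX mice and 36.7 to 86.1 CPM in NT mice. None of these markers was at 0 in DEX or NT soleus, and their part in the result was not tested.

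In the gastrocnemius, 5 ribosomal protein genes rose and none fell in DEX over NT, 6.67% of the set, where 8.38% of 14484 genes were called and 4.31% rose, so the share of calls was near the background. The median log2 fold change was 0.12 against -0.01 for all genes, and 69 of 75 were above 0. The genes took 1.29, 1.24, 1.21 and 1.22% of counts in DEX mice, against 1.15, 1.19, 1.21, 1.07 and 1.12% in NT mice. There were 21 that rose without the 3 libraries, 28% of the set, where 26.4% of 14428 genes were called and 1910 rose. The count was 1 without DEX mouse 3 and 3 without DEX mouse 1, DEX mouse 2, NT mouse 4 or NT mouse 5, and Rps2 was called whichever library was left out. Rps24, another gene of Diamond-Blackfan anaemia, had 184.4, 200.5, 222.2 and 186.9 CPM in DEX mice, against 155.1, 164.9, 159.6, 163.0 and 156.8 CPM in NT mice. Its groups did not overlap, and its log2 fold change of 0.31 ± 0.09 was the highest in this muscle (adjusted p = 0.0187). Rps2, at the mRNA entry, had 616.3, 629.0, 696.6 and 698.1 CPM in DEX mice, against 560.3, 544.2, 589.1, 574.5 and 487.6 CPM in NT mice. Again every DEX mouse was above every NT mouse (0.26 ± 0.07, adjusted p = 0.00812). Rpl7a (0.22 ± 0.06, adjusted p = 0.0102), Rps15 (0.20 ± 0.06, adjusted p = 0.0494) and Rpl4 (0.18 ± 0.05, adjusted p = 0.0321) made up the rest. Rpl39 had the lowest value, -0.07 ± 0.17, and Rpl38 was at -0.00 with overlapping groups. Of 44 ribosome biogenesis genes 3 rose and 2 fell, and 9 rose and 4 fell without the 3 libraries. Of 22 translation factors 3 rose, and 9 without the 3 libraries. Of 76 oxidative phosphorylation genes 3 fell, and 40 fell and 1 rose without the 3 libraries. Of 10 adipocyte markers 7 rose, with sums of 667 to 759 CPM in DEX mice and 612 to 817 CPM in NT mice. Of 10 endothelial markers 4 fell, with sums of 291 to 306 CPM in DEX mice and 344 to 373 CPM in NT mice, and of 10 tendon markers 5 fell, with sums of 111 to 252 CPM and 185 to 498 CPM. None of the 10 Schwann cell or 9 macrophage markers passed. None of these markers was at 0, and their part in the result was not tested.

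The log2 fold change of DEX over NT had a higher value in the soleus than in the gastrocnemius for 72 of 75 genes, with a median difference of 0.27 on the log2 scale against 0.06 for all genes. The test of that difference called 8.36% of 15327 genes in either direction, with 584 genes higher in the soleus. Of the set it called 7 genes, 9.33%, all higher in the soleus. Among them were Rpl12 (difference 0.56 ± 0.18, adjusted p = 0.0382), Rpl38 (0.54 ± 0.16, adjusted p = 0.0245), Rpl37a (0.48 ± 0.15, adjusted p = 0.039), Rpl10 (0.47 ± 0.14, adjusted p = 0.0302), Rps14 (0.44 ± 0.13, adjusted p = 0.0209) and Rpl21 (0.39 ± 0.13, adjusted p = 0.0412). Rpl3 had the largest difference, 0.75 ± 0.51, and was not called (adjusted p = 0.354). Leaving out the 3 libraries gave 21 calls, against a background of 33.6%, and without those and SO DEX mouse 4 there were 9, against 29.3%. None was called when SO DEX mouse 4, SO NT mouse 4 or 5, GA NT mouse 2 or 3, or GA DEX mouse 2 was left out; 1 was called without GA DEX mouse 3 or 4, 2 without GA NT mouse 1 or 4, SO NT mouse 1 or SO DEX mouse 2, and 4 without GA DEX mouse 1.

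In untreated mice, 18 of the 75 genes were higher in soleus than in gastrocnemius and none lower, 24% of the set. Of 15327 genes 45.8% differed between the muscles, and 3428 were higher in soleus. The median log2 fold change was 0.12 against 0.00 for all genes. Rps13 had 188.8, 202.0, 194.1, 137.3 and 177.4 CPM in NT soleus, against 121.7, 120.4, 116.2, 100.1 and 97.1 CPM in NT gastrocnemius, each on the scale of its own muscle. The muscles did not overlap, with a log2 fold change of 0.64 ± 0.10 (adjusted p = 4.07e-07). Rplp0 was likewise higher in soleus by 0.45 ± 0.06 (adjusted p = 9.65e-09). Both are among the genes with the lowest DEX response in soleus. The NT soleus libraries enter both comparisons with opposite sign, so part of this link is built in. NT gastrocnemius and NT soleus lie in different stretches of the listed order of samples. Muscle and position in the list cannot be told apart here. Once the 3 libraries were left out, 26 were higher and 1 lower, against a background of 58.1%; leaving out GA NT mouse 4 gave 11 calls, GA NT mouse 5 gave 9, SO NT mouse 1 gave 10, SO NT mouse 2 gave 6 and SO NT mouse 3 gave 7.

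**Figure D2:**
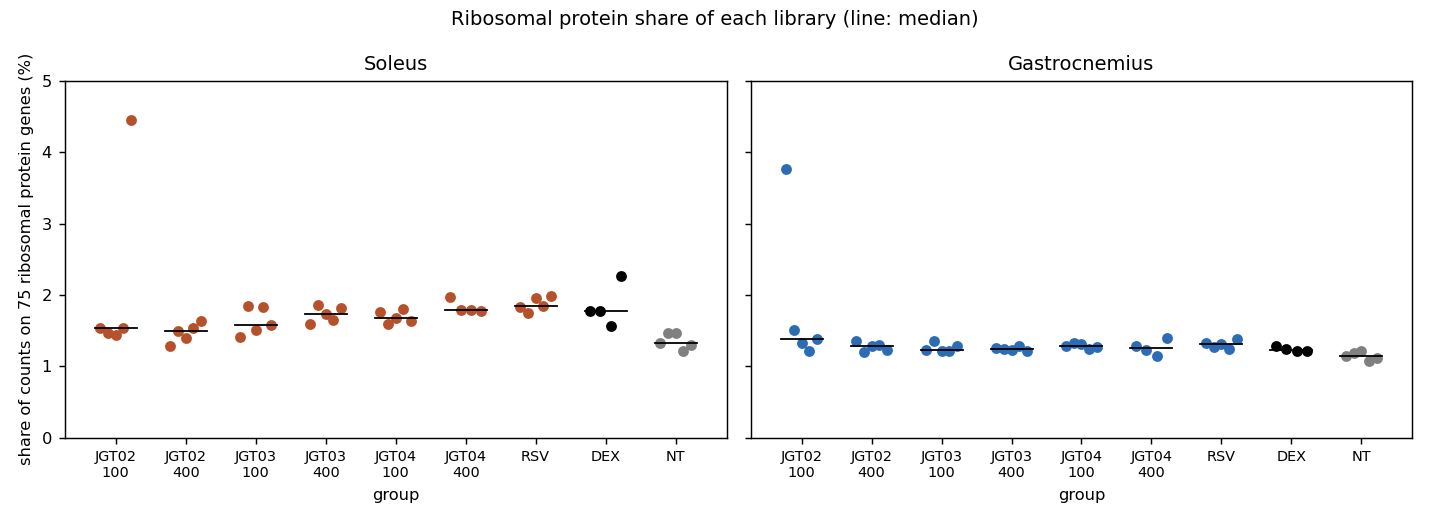
Share of each library's counts on the 75 ribosomal protein genes (y axis, percent) by group (x axis) in soleus and gastrocnemius, with 1 point per library and a line at the group median. DEX soleus libraries lie between 1.57 and 2.27% and NT soleus libraries between 1.21 and 1.47%, and the 2 JGT02 libraries at 100 mg/kg with 4.46 and 3.77% stand above all others.

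The treated groups were each compared with DEX, so the 7 comparisons of a muscle share the same 4 DEX libraries. With JGT02 at 400 mg/kg in the soleus, 4 genes fell and none rose, 5.33% of the set, where 17.1% of all genes were called. All 75 log2 fold changes were below 0, with a median of -0.22 against -0.02 for all genes. The genes took 1.29, 1.49, 1.39, 1.54 and 1.63% of counts in these mice, against 1.77, 1.78, 1.57 and 2.27% in DEX mice. Rpl26, a large subunit protein near the exit of the peptide tunnel, had 153.1, 155.7, 147.6, 168.3 and 163.4 CPM in these mice, against 201.1, 214.3, 180.1 and 228.1 CPM in DEX mice. Its groups did not overlap (-0.39 ± 0.12, adjusted p = 0.0272). Rpl28 (-0.33 ± 0.11, adjusted p = 0.0283), Rps15 (-0.29 ± 0.10, adjusted p = 0.0395) and Rps7 (-0.28 ± 0.10, adjusted p = 0.0487) were the other 3, and Rpl3 was at -0.86 ± 0.33 (adjusted p = 0.0621). In the fit without the 3 libraries 25 fell, against a background of 30.3%, and without those and DEX mouse 4 there were 4, against 20%. Leaving out single libraries gave 0 calls without DEX mouse 4, 1 without DEX mouse 2 or treated mouse 1 or 3, 2 without treated mouse 2 or 4, and 7 without DEX mouse 3. Of 10 endothelial markers 9 fell in the same comparison, with sums of 252 to 456 CPM in the treated mice and 561 to 703 CPM in DEX mice. Of 9 macrophage markers 2 fell, with sums of 27.5 to 43.3 CPM in the treated mice and 44.1 to 439 CPM in DEX mice. None of these markers was at 0, and their part in the result was not tested.

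With JGT02 at 100 mg/kg in the soleus, no gene passed with all libraries, where 8.82% of genes were called, and the median was -0.12. DESeq2 called none either. Without mouse 5, the library with 4.46% of counts on these genes, 33 fell, and without the 3 libraries 35 fell, against a background of 35.7%, with a median of -0.26 against -0.06 for all genes. The remaining 4 mice had 1.54, 1.46, 1.44 and 1.53% of counts on the set, below all 4 DEX mice. With all libraries, 9 of 10 endothelial markers fell, with sums of 391 to 554 CPM in the treated mice and 561 to 703 CPM in DEX mice, and 5 of 10 Schwann cell markers fell, with sums of 105 to 641 CPM and 120 to 937 CPM. Of 9 macrophage markers 4 rose, with 6176 CPM in mouse 5 and 36.2 to 48.3 CPM in the other treated mice. None of these markers was at 0, and their part in the result was not tested. The 35 included Rpl3, Rpl10a, Rpl11, Rpl39, Rpl41, Rplp2 and Rps19. Without DEX mouse 4 as well, 12 fell, against 28.4%.

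With JGT03 at 100 mg/kg in the soleus, 4 genes fell. That was 5.33% of the set, where 8.49% of all 14811 genes were called in either direction and 751 fell. The median was -0.16 against -0.02 for all genes. As set out below, treatment and position in the list cannot be told apart for this group. Rps26 had 115.4, 151.1, 134.4, 142.2 and 137.1 CPM in these mice, against 172.4, 176.8, 164.2 and 241.7 CPM in DEX mice. The groups lay apart (-0.47 ± 0.12, adjusted p = 0.0094). Rpl26 (-0.40 ± 0.12, adjusted p = 0.0368), Rps7 (-0.35 ± 0.10, adjusted p = 0.0272) and Rpl29 (-0.34 ± 0.10, adjusted p = 0.0314) also fell, while Rplp2 had the highest value, 0.28 ± 0.15 (adjusted p = 0.267). A total of 21 fell without the 3 libraries, against 30%, and without DEX mouse 4 as well there were 6, against 20.2%. Single libraries left out gave 0 calls without DEX mouse 4, 1 without treated mouse 1, 3 or 5, and 2 without DEX mouse 2. Of 10 Schwann cell markers 9 fell, with sums of 97 to 169 CPM in the treated mice and 120 to 937 CPM in DEX mice, and 5 of 10 endothelial markers fell, with sums of 393 to 459 CPM and 561 to 703 CPM. Of 10 tendon markers 4 rose, with sums of 131 to 523 CPM and 106 to 312 CPM. None of these was at 0, and their part in the result was not tested.

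With resveratrol in the soleus, 6 genes rose over DEX and none fell. That was 8% of the set, where 12.7% of all 14811 genes were called in either direction and 757 rose. The median was 0.13 against -0.03 for all genes. As set out below, treatment and position in the list cannot be told apart for this group. The genes took 1.83, 1.75, 1.96, 1.85 and 1.99% of counts in these mice, against 1.77, 1.78, 1.57 and 2.27% in DEX mice, so the shares overlapped. Rplp2, of the stalk, had 215.4, 228.3, 281.4, 261.4 and 263.5 CPM in RSV mice, against 169.7, 181.8, 167.5 and 166.5 CPM in DEX mice. Every RSV mouse was above every DEX mouse (0.54 ± 0.16, adjusted p = 0.0186). Rplp1 (0.50 ± 0.16, adjusted p = 0.0339), Rps4x (0.43 ± 0.14, adjusted p = 0.035), Rpl37a (0.37 ± 0.12, adjusted p = 0.0448), Rps13 (0.37 ± 0.12, adjusted p = 0.0423) and Rps3 (0.29 ± 0.10, adjusted p = 0.0429) were the others. Rplp1, Rplp2, Rps13 and Rps4x are among the genes that did not pass in DEX over NT. Both comparisons use the same DEX libraries with opposite sign, so part of this link is built in. Without the 3 libraries 14 rose, against 36.7%. The call count was 0 without DEX mouse 4 or RSV mouse 3 and 1 without DEX mouse 1 or 3 or RSV mouse 4. In the same comparison 12 of 76 mitochondrial ribosomal protein genes rose and 1 fell, and 31 rose and 1 fell without the 3 libraries. Of 44 biogenesis genes 7 fell, and 15 fell and 2 rose without the 3 libraries, with Nop58 at -0.85 ± 0.19 and Gnl3 at -0.78 ± 0.18. Of 10 endothelial markers 5 fell, with sums of 349 to 503 CPM in RSV mice and 561 to 703 CPM in DEX mice, and their part in the result was not tested.

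The other soleus groups had no call with all libraries, against 3.06% of genes for JGT03 at 400 mg/kg, 8.95% for JGT04 at 100 mg/kg and 4.58% for JGT04 at 400 mg/kg, with median log2 fold changes of -0.01, -0.04 and 0.09. DESeq2 called none in any of these. In the absence of the 3 libraries 3, 5 and 4 were called, against 27.5, 31.2 and 22.2% of genes, and in JGT04 at 400 mg/kg all 4 of these rose. Over the mean of the 6 extract groups only Rpl26 fell (-0.29 ± 0.10, adjusted p = 0.0371), where 13.9% of genes were called, and 13 fell without the 3 libraries, against 39.6%. That 1 call was lost without any of 11 libraries, DEX mouse 1, 2 or 4 among them, and 13 genes were called without JGT02 100 mg/kg mouse 5 and 2 without JGT02 400 mg/kg mouse 1. In the order in which the samples are listed, the soleus groups of JGT03, JGT04 and resveratrol come after those of NT, DEX and JGT02 at 100 mg/kg, and JGT02 at 400 mg/kg lies across both stretches. Within that group Rplp2 was at 175.6 and 207.7 CPM in mice 4 and 5, of the later stretch, against 134.7, 137.0 and 138.4 CPM in mice 1, 2 and 3. A fit without the 3 libraries and with a term for the stretch, whose offset in soleus rests on those few mice, called none for JGT03, JGT04, resveratrol or the extract mean. It called few genes of any kind there, with 0% for JGT03 at either dose, 0.0136 and 0.034% for JGT04 at 100 and 400 mg/kg, 0.0136% for resveratrol and 1.32% for the extract mean, so a count of 0 says little. It gave medians of -0.37 for JGT03 at 100 mg/kg and -0.05 for resveratrol. The same fit called 40 for JGT02 at 100 mg/kg, 25 for JGT02 at 400 mg/kg and 71 for DEX over NT, against 36.6, 14.1 and 43.8% of genes. For the later groups, position in the list and treatment cannot be told apart.

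**Figure D3:**
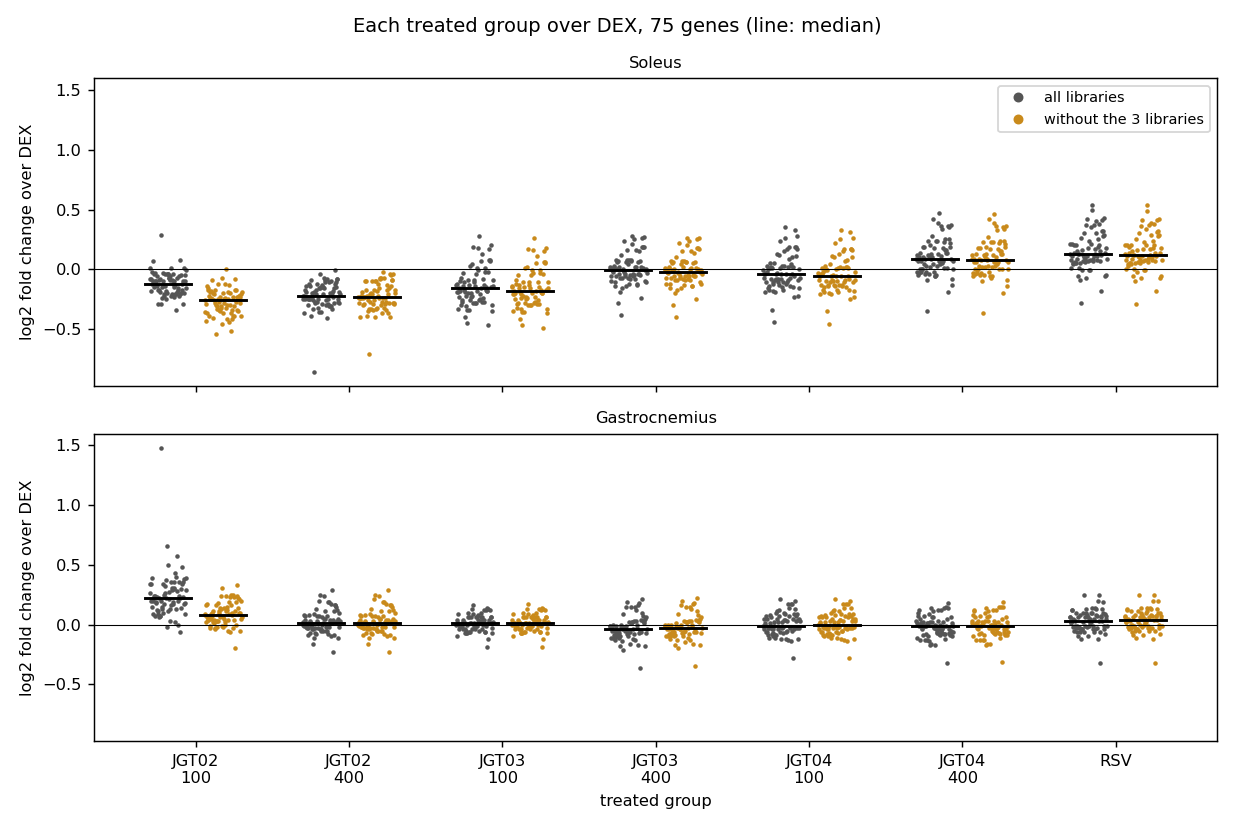
Log2 fold change over DEX (y axis) of each of the 75 ribosomal protein genes in the 7 treated groups (x axis) of soleus and gastrocnemius, with all libraries (grey) and without the 3 libraries that stand apart (ochre), and a line at the median. The soleus median is -0.22 for JGT02 at 400 mg/kg and 0.13 for resveratrol, and the gastrocnemius median of JGT02 at 100 mg/kg is 0.22 with all libraries and 0.08 without the 3.

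In the gastrocnemius, JGT02 at 100 mg/kg raised 17 genes over DEX, where 10.2% of genes were called, with a median log2 fold change of 0.22 against 0.03 for all genes. Rpl3 had 371.9, 48.6, 36.4, 34.6 and 35 CPM in these mice, against 37.1, 42.6, 35 and 37.4 CPM in DEX mice, so its log2 fold change of 1.48 ± 0.40 (adjusted p = 0.0208) came from mouse 1, and it was 0.03 without the 3 libraries. Without the 3 libraries 1 gene rose, Rps27, against a background of 0.963%, and the median was 0.08. Rps27, a zinc finger protein of the small subunit, had 175.1, 204.0, 209.1, 173.8 and 181.5 CPM in these mice, against 168.4, 147.6, 144.6 and 152.3 CPM in DEX mice, with no overlap (0.30 ± 0.07, adjusted p = 0.0134). Of 9 macrophage markers all 9 rose, with a summed level of 4744 CPM in mouse 1 and 62.1 to 105 CPM in the other treated mice, against 60.5 to 99.8 CPM in DEX mice. Of 8 markers of satellite and regenerating cells tested 5 rose, with 4264 CPM in mouse 1 and 47.7 to 85.5 CPM in the other treated mice, against 48.3 to 56.5 CPM in DEX mice. Of 10 tendon markers 4 rose and of 10 fibro-adipogenic markers 3 rose, with mouse 1 again far above the rest, at 2639 and 7580 CPM. Leaving out treated mouse 3, 4 or 5 gave 37, 49 and 31 calls, and leaving out DEX mouse 1, 2, 3 or 4 gave 7, 5, 0 and 6.

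In the other gastrocnemius groups a single gene passed. Rps24 fell with JGT03 at 400 mg/kg, where 0.677% of genes were called, and had 152.8, 154.1, 153.0, 157.7 and 157.7 CPM in these mice, against 184.4, 200.5, 222.2 and 186.9 CPM in DEX mice. All treated mice were below all DEX mice and near or below the 155.1 to 164.9 CPM of NT mice (-0.36 ± 0.09, adjusted p = 0.0462). The Rps24 rise in DEX and the fall here use the same DEX libraries with opposite sign, so part of this link is built in. With the 3 libraries left out, 4 genes were called in JGT03 at 400 mg/kg, against 6.49% of genes, and 0 in JGT03 at 100 mg/kg, against 1.17%. The Rps24 call with all libraries was lost without any of 8 single libraries, which are the 5 treated mice and DEX mice 2, 3 and 4. Rps24 was also called without the 3 libraries in JGT02 at 400 mg/kg, in both JGT04 groups and with resveratrol, where 5.7, 9.36, 11.3 and 9.47% of genes were called, and its CPM in those groups lay between 145.0 and 184.5. These calls rest on the same DEX libraries. In the listed order all libraries of JGT04 at 400 mg/kg and resveratrol come in a later stretch than DEX. Those of JGT04 at 100 mg/kg lie across both. With a term for the stretch, no ribosomal protein gene was called for JGT04 at 400 mg/kg or resveratrol. Few genes of any kind were, 0.36 and 0.319%, so a count of 0 says little. There, treatment and position cannot be told apart. No gene passed in JGT02 at 400 mg/kg, JGT03 at 100 mg/kg, either JGT04 group or resveratrol with all libraries, where 0.808, 0.0207, 1.38, 2.04 and 1.37% of genes were called; DESeq2 called 0, 0, 1, 1 and 1. The mean of the 6 extract groups gave none, where 1.26% were called, and 2 by DESeq2, and 3 were called without JGT02 100 mg/kg mouse 1, which was also the count without the 3 libraries, against 9.57%.

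The dose of the extracts made no called difference in either muscle. For 400 against 100 mg/kg over the 3 extracts, no ribosomal protein gene passed in gastrocnemius, where 0.2% of genes did, or in soleus, where 0% did, and DESeq2 called none in either. The median log2 fold changes were -0.09 and 0.06, and without the 3 libraries -0.04 and 0.11.

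Rpl3 and Rpl3l ran in opposite directions in the libraries that stand apart. Rpl3l, which shares no word of 31 bases with another gene, had 26.2 CPM in the GA library of JGT02 100 mg/kg mouse 1 and 306.8 to 383.6 CPM in the other GA libraries, while Rpl3 had 371.9 CPM there and 29.2 to 48.6 CPM in the others. In the SO library of JGT02 100 mg/kg mouse 5, Rpl3l had 5.61 CPM and Rpl3 365.6 CPM. In the SO library of JGT02 400 mg/kg mouse 1, which has fast muscle markers, Rpl3l had 464.4 CPM and Rpl3 28.8 CPM. The ratio of their counts, not corrected for length and used only between libraries, was 3.13, 4.21, 5.02 and 1.02 in DEX soleus, against 7.78, 5.10, 5.41, 6.67 and 5.70 in NT soleus. Every DEX mouse lay below every NT mouse. In gastrocnemius the ratio was 9.90, 7.85, 10.6 and 10.0 in DEX mice, against 12.6, 10.2, 9.80, 12.4 and 9.94 in NT mice, with overlap. DEX soleus mouse 4, the lowest by this ratio among DEX and NT mice, was also the one with 439 CPM of macrophage markers.

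**Figure D4:**
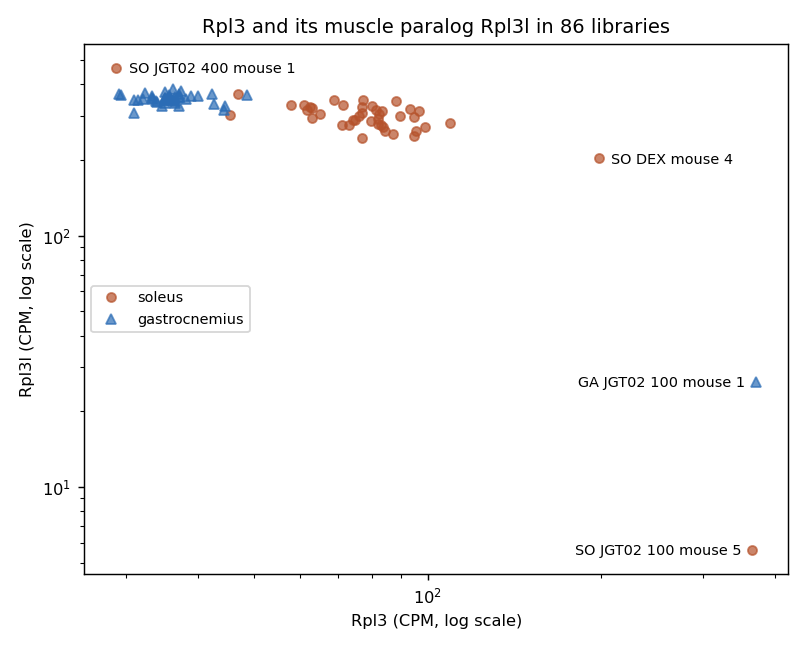
Rpl3 (x axis, CPM, log scale) and Rpl3l (y axis, CPM, log scale) in each of the 86 libraries, with circles for soleus and triangles for gastrocnemius. The 2 libraries with high Myh3 have Rpl3 at 371.9 and 365.6 CPM and Rpl3l at 26.2 and 5.61 CPM, and SO DEX mouse 4 lies between them and the rest.

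Within groups the genes varied together. As a description, the Pearson correlation of each gene with the median of the other 74, over deviations of log2 CPM from group means that share library depth and composition, had a median of 0.964 in both muscles over 43 libraries. Without the 3 libraries it was 0.862 in soleus (41 libraries) and 0.765 in gastrocnemius (42 libraries). Rpl38 was then highest in soleus, at 0.948, followed by Rpl27a (0.928), Rpl34 (0.927), Rpl13 (0.923) and Rpl23 (0.918), and Rpl32 was highest in gastrocnemius, at 0.921. The lowest in gastrocnemius were Rps26, at 0.027, and Rps24, at 0.231. In soleus the lowest value was 0.529. Outside the set, the genes most like the median were Rpl36al (0.917), Rps3a1 (0.901), Gnb2l1 (0.899) and the elongation factor gene Eef1b2 (0.88) in soleus, and Fau (0.882), Eef1b2 (0.852) and Hint1 (0.838), a nucleotide hydrolase, in gastrocnemius.

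The genes lie on 19 chromosomes, with 14 on chromosome 7. Ribosomal protein genes have many processed pseudogenes, and all 75 share words of 31 bases with at least 1 pseudogene in GENCODE vM21 on GRCm38. The share of a gene's words found in another gene had a median of 27.9% and ran between 1.0 and 94.1%, so how the counting split such reads bears on most levels given here. Of the 9 genes that share under 10%, with Rpl22, Rpl35a, Rpl39, Rpl8, Rps15a, Rps19, Rps24 and Rps3 among them, 7 rose in DEX soleus, with a median log2 fold change of 0.42, and 1 in DEX gastrocnemius, with a median of 0.08. For 18 genes an exon overlaps an exon on the other strand, Rps28, Rpl12, Rpl5 and Rps2 among them, and whether reads were assigned by strand is not given in the sources used here.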

How the data were processed

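The authors deposited RSEM expected counts by symbol. Per the submitters' processing notes the tools named are RSEM 1.3.3 and STAR 2.7.3a, with Trim Galore 0.6.5 and FastQC 0.11.9, and the build is GRCm38; per the labels' protocols, TRIzol RNA went into strand-specific libraries read as pairs. RSEM shares reads that match several genes, and 17% of the values of these 75 genes were whole with a tolerance of 0. The annotation is not given in the sources used here.

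Expected counts were rounded, genes kept by filterByExpr on the groups, and libraries scaled by TMM. The quasi-likelihood test of edgeR 4.0.16 (R 4.3.3) was run in 1 fit per muscle over 43 libraries, and in 1 fit over 86 for comparisons of muscles. P-values were adjusted by Benjamini-Hochberg over all genes tested, with 0.05 as the threshold. Shares of all genes called are for either direction unless stated. SEs derive from the F statistic. CPM values of single genes in single libraries use TMM-scaled totals of each muscle. Marker sums, the mean CPM behind the threshold of 1 CPM, shares and the log2 CPM of the correlations use totals without TMM. Word sharing and promoter letters were computed from GENCODE vM21 transcripts and RefSeq windows. The fits were tested on simulated data.

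Named genes are a panel of 18, per comparison the 5 largest rises and falls that passed, the highest and lowest of the set, the 2 largest rises and falls of other lists, and those most and least like the set. Members and lists were chosen with earlier results of these data known; genes called without the 3 libraries and low-sharing genes were named after their values were seen. The alternatives tried include the test of DESeq2 1.42.0 or only its size factors, all genes unfiltered, a fit on just the groups of a comparison, a block for mouse number, fits without the 3 libraries with and without a term for the listed stretch (32, 28 and 26 libraries), and leaving out each library. Leaving out DEX soleus mouse 4 with the 3 was chosen after seeing the data. Results of a few genes are not reported here by name, and 1 gene is left out of the plot of single genes.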

Additional observations from a re-analysis of the deposited data

Results flagged for a closer look

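In 3 groups of 4 or 5 libraries, 1 library's ribosomal protein share of counts lay far from the rest by Dixon's criterion. These were the GA library of JGT02 at 100 mg/kg, mouse 1 (3.77%), the SO library of JGT02 at 100 mg/kg, mouse 5 (4.46%), and the SO library of JGT04 at 400 mg/kg, mouse 1 (1.97%, against 1.77 to 1.79% in its 3 group mates). Rpl3l was low in NT gastrocnemius mouse 5, at 306.8 CPM, against 356.3 to 367.6 CPM in the other 4. Of 38 tests, each of 1 measure in 1 group, 4 stood out, where chance gives about 1 in 20. The tests reuse the same libraries for several measures, so they are not independent.

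By a test of the difference itself, the DEX response was called different between soleus and gastrocnemius for Rpl10 (0.47), Rpl12 (0.56), Rpl21 (0.39), Rpl37a (0.48), Rpl38 (0.54) and Rps14 (0.44), all on the log2 scale and higher in soleus. The set's share of calls was 9.33%, all of them higher in soleus. That of all genes was 8.36% in either direction, with 584 of 15327 higher in soleus. Each of the genes listed here lost its call with some single library left out. With the mouse number as a block, Rpl38 and Rps14 were still called and the others listed here were not.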

How the results depend on the processing

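Counts are of ribosomal protein genes called, and a count with no share of all genes here or above cannot be set against a background. None of the 54 single-gene results named below changed sign, but some medians did. With the term for the listed stretch the SO resveratrol median was -0.05, against 0.13 in the report's fit, and that of SO JGT04 at 400 mg/kg was -0.12, against 0.09. All 75 values of SO JGT03 at 100 mg/kg were then below 0, Rplp2 among them at -0.23. Without the 3 libraries and SO DEX mouse 4 the medians of SO JGT03 at 400 mg/kg and JGT04 at 100 mg/kg were 0.05 and 0.02, against -0.01 and -0.04. GA medians for JGT04 at 100 and 400 mg/kg were 0.03 and 0.04 with the stretch term, against -0.01 each. DESeq2 gave 1 for GA JGT04 at 100 mg/kg, 1 for GA JGT04 at 400 mg/kg, 1 for GA resveratrol, 2 for the GA extract mean, 7 for SO JGT02 at 400 mg/kg, 7 for SO JGT03 at 100 mg/kg and 10 for SO resveratrol. In those GA comparisons DESeq2 called 2.6, 3.18, 2.16 and 1.88% of all genes. With its size factors in edgeR there were 2 for the muscle difference and 1 for GA resveratrol, where 1.3% of all genes were called. With no filter on low counts, which tests more genes, there were 0 for the muscle difference, 3 for GA DEX, 0 for GA JGT03 at 400 mg/kg, 8 for NT soleus over gastrocnemius, 1 each for SO JGT02 at 400 mg/kg, SO JGT03 at 100 mg/kg and SO resveratrol, and 0 for the SO extract mean. Of all genes, 3.42 and 0.152% were then called for GA DEX and GA JGT03 at 400 mg/kg. For those SO groups and the SO extract mean the shares were 6.67, 2.72, 4.3 and 5.84%. With only the groups compared there were 15 for the muscle difference, 16 for GA DEX, 0 for GA JGT02 at 100 mg/kg, 2, 1 and 2 for GA JGT04 at 100 mg/kg, JGT04 at 400 mg/kg and resveratrol, 32 for NT soleus over gastrocnemius, 0 and 1 for SO JGT02 at 400 mg/kg and JGT03 at 100 mg/kg, 10 for SO resveratrol and 0 for the SO extract mean. Of all genes 23.9, 19.7, 61.4 and 16.7% were called in that setting for the muscle difference, GA DEX, NT and SO resveratrol, against 20, 21.3, 42.7 and 13.3% of the set, and 0% for GA JGT02 at 100 mg/kg. Without the 3 libraries there were 21 for the muscle difference, 21 for GA DEX, 1 for GA JGT02 at 100 mg/kg, 1 for JGT02 at 400 mg/kg, 4 for JGT03 at 400 mg/kg, 2 each for both JGT04 groups and resveratrol and 3 for the GA extract mean. In SO they were 35 and 25 for JGT02 at 100 and 400 mg/kg, 21 and 3 for JGT03, 5 and 4 for JGT04, 14 for resveratrol and 13 for the extract mean. With the term for the listed stretch as well they were 25 for the muscle difference, 23 for GA DEX, 1 and 3 for GA JGT02, 4 for GA JGT03 at 400 mg/kg, 3 for GA JGT04 at 100 mg/kg, 4 for the GA extract mean, 40 and 25 for SO JGT02, and 0 for SO JGT03 at 100 mg/kg, SO resveratrol and the SO extract mean. Of all genes 26.7% were then called for GA DEX, 0.873 and 5.82% for GA JGT02, and 6.65% for GA JGT03 at 400 mg/kg. The shares were 6.25% for GA JGT04 at 100 mg/kg and 7.07% for the GA extract mean. No ribosomal protein gene was called for GA JGT04 at 400 mg/kg or GA resveratrol, where 0.36 and 0.319% of all genes were. Leaving out SO DEX mouse 4 with the 3, chosen after seeing the data, gave 12 for SO JGT02 at 100 mg/kg, 1 for JGT03 at 400 mg/kg, 1 and 3 for JGT04 and 17 for resveratrol. These are 16, 1.33, 1.33, 4 and 22.7% of the set, where 28.4, 15.4, 18.9, 10 and 23.7% of all genes were called. The cause of these changes was not tested.

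With the mouse number as a replicate block there were 3 for the muscle difference, 4 for GA JGT02 at 100 mg/kg, 0 for GA JGT03 at 400 mg/kg and 10 for SO JGT02 at 400 mg/kg. For GA JGT02 at 100 mg/kg that was 5.33% of the set, where 0.504% of all genes were called. For GA JGT03 at 400 mg/kg 0.428% of all genes were called. Whether the numbers pair the muscles of a mouse was left unsettled. Deviations of GA and SO libraries of the same treatment and number had a median correlation of 0.00944 over 40 pairs, of which 12 exceeded 0.1. For other numbers it was -0.00722 over 153 pairs, of which 34 exceeded 0.1. The highest values were 0.497 and 0.437. Medians near 0 of such deviations cannot show that the samples are unpaired.

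With each single library dropped in turn, calls ran over 25 to 61 for SO DEX, 1 to 6 for GA DEX, 0 to 7 for the muscle difference, 6 to 19 for NT soleus over gastrocnemius, 0 to 49 for GA JGT02 at 100 mg/kg, 0 to 1 for GA JGT03 at 400 mg/kg and 0 to 3 for the GA extract mean. In SO it gave 0 to 33 and 0 to 7 for JGT02 at 100 and 400 mg/kg, 0 to 6 for JGT03 at 100 mg/kg, 0 to 1 for JGT04 at 100 mg/kg, 0 to 7 for resveratrol and 0 to 13 for the extract mean. Every other comparison stayed at 0. Of all genes, the same fits called 1981 to 2761 for SO DEX, 871 to 1103 for GA DEX and 883 to 1468 for the muscle difference. They called 6503 to 6719 for NT soleus over gastrocnemius and 120 to 2902 for GA JGT02 at 100 mg/kg. In SO they called 590 to 4631 and 1168 to 2719 for JGT02, 692 to 1261 for JGT03 at 100 mg/kg and 811 to 2152 for resveratrol. Of 54 results for single genes, 244 of 563 fits with a library left out and 89 of 410 fits under other alternatives lost the call, and none of those changed sign.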
